A study of Mus musculus with 24 samples.

Results

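The neuroligin, neurexin and cerebellin genes were followed in RNA-seq libraries of mouse brain after bulbectomy, in which the olfactory bulbs are taken out, and after sham surgery. The group holds 9 of the 55487 genes in the count tables: Nlgn1, Nlgn2, Nlgn3, Nrxn2, Nrxn3, Cbln1, Cbln2, Cbln3 and Cbln4. These genes were chosen by name, with measured values known: Nlgn3 and Cbln1 were among the genes of smallest p in hippocampus after bulbectomy, and the other members belong to the same protein families. The hippocampus values of the 9 genes are therefore given as a description, without p-values, and support no statement about the group; where the text or a plot marks those that passed a threshold there, that only restates the choice. All mice were wild type. Bulbectomy was represented by 4 hippocampus, 3 cortex and 2 cerebellum libraries, and sham surgery by 5 libraries of each region. The sources used here give neither age, sex nor the time since surgery, nor is it stated whether each library came from a separate animal, so p-values measure the spread between these libraries. Levels are CPM on one scale across the 24 libraries, the reads of a gene scaled to the size of its library. That size is the reads assigned to genes kept by a filter on low counts, multiplied by the TMM scaling factor of the library. These factors ran from 0.8167 in cerebellum sham 2 to 1.26 in cerebellum sham 1.

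Neuroligins are adhesion proteins of the postsynaptic membrane that bind presynaptic neurexins across the synaptic cleft. Neuroligin 1 is best known from excitatory synapses, neuroligin 2 from inhibitory synapses, and neuroligin 3 is found at both. Cerebellins are secreted proteins of the C1q family that bridge neurexins to other postsynaptic receptors. In the cerebellum, Cbln1 released by granule cells joins parallel fibres to Purkinje cells, and Cbln3 is secreted in a complex with Cbln1. In the hippocampus such adhesion pairs help to set the balance of excitatory and inhibitory synapses. In mouse, cerebellins are also known from the thalamus and the habenula, which lie next to the hippocampus.

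Because these genes are paralogs, their coding sequences were compared to see how far reads could be shared between them. Over aligned coding bases, Nlgn3 was identical to Nlgn1 at 70.2% and to Nlgn2 at 70.5%, and Cbln1 was identical to Cbln3 at 67.4%. The longest run of identical bases shared by any annotated transcripts of 2 members was 23 bases, in the pairs Nlgn1 with Nlgn3, Nlgn2 with Nlgn3 and Nrxn2 with Nrxn3. The longest shared runs of 3 pairs are shown, for Nlgn3 and Cbln1 with their relatives, because these are the genes the hippocampus values turn on, with the shared run in capitals and 20 bases on each side in lower case (GENCODE M21 transcripts, GRCm38, coding strand, 5′ to 3′). The first pair lies in exons of Nlgn1 (chr3:25436334-25436396, minus strand) and Nlgn3 (chrX:101318175-101318237, plus strand).
Nlgn1: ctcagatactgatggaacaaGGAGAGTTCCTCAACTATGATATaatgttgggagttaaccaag
Nlgn3: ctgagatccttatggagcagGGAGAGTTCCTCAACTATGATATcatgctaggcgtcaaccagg
The second pair lies in exons of Nlgn2 (chr11:69826781-69826843, minus strand) and Nlgn3 (chrX:101318619-101318681, plus strand).
Nlgn2: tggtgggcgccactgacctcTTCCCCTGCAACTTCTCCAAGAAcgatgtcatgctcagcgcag
Nlgn3: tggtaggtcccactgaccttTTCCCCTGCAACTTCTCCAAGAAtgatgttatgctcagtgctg
The third pair spans a splice junction in both Cbln1 (between chr8:87471787 and 87472012, minus strand) and Cbln3 (between chr14:55883562 and 55883947, minus strand), with a shared run of 21 bases.
Cbln1: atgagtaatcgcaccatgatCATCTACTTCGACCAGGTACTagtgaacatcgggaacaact
Cbln3: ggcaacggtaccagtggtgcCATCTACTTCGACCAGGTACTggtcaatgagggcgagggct
A read that extends past these runs on either side differs between the 2 genes of a pair. The read length is not given in the sources used here.

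Depth and tissue makeup differed between libraries in ways that touch the values that follow. Assigned reads were 3255661 in hippocampus sham 1, 138963332 in hippocampus sham 4 and 8145624 to 20230673 in the other 22 libraries. Hippocampus sham 1 and 2 held far more RNA of striatal medium spiny neuron markers than the other 7 hippocampus libraries (16 genes, summed level 4498 and 5847 CPM, against 602 to 958 CPM). Cerebellum sham 1 stood apart from the other 4 sham cerebellum libraries, with a summed level of 9 cerebellar granule cell markers of 2952 CPM, against 1478 to 2152 CPM. Of the 7 cerebellum libraries it was the highest for 6 of these markers (Neurod1, Zic1, Fat2, Gabra6, Zic2 and Cadps2) and the lowest for the other 3 (Grm4, Pax6 and Barhl1). In the sham libraries, 5 of 7 dentate granule cell markers were higher and 7 of 9 cortical layer markers lower in hippocampus than in cortex (3 and 3 called), and all 9 cerebellar granule and all 6 Purkinje cell markers were called lower in hippocampus and in cortex than in cerebellum. In tissue, fewer cells of a type and less RNA per cell cannot be told apart.

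In hippocampus, Nlgn3 was higher after bulbectomy and Nlgn1 was lower, with every bulbectomy library beyond every sham library for both genes. Nlgn3 (ENSMUSG00000031302, chromosome X, 101299168 to 101325963 on the plus strand) measured 54.4, 70.7, 56.8 and 56.0 CPM after bulbectomy, against 15.3, 21.7, 16.0, 22.7 and 21.2 CPM after sham. The lowest bulbectomy library was thus well above the highest sham library, and bulbectomy 2 lay above the other 3. The fitted log2 fold change was 1.63 ± 0.18 (SE), and 1.60 with hippocampus sham 1 and 2 both left out. Of the exon bases of Nlgn3, 41.2% lie on the same strand within exons of Gm21986, a transcript that reads through it. Gm21986 itself was assigned 1 to 6 reads in the bulbectomy hippocampus libraries (0.13 to 0.67 CPM) and 0 to 21 in the sham ones (0 to 0.35 CPM), which differ in depth. Each hippocampus library also lists 3.92% to 4.58% of its reads as left unassigned for ambiguity between genes. Reads lying in exons of both Nlgn3 and Gm21986 would be of that kind and so be missing from the Nlgn3 values. How many there were is not given in the sources used here.

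Nlgn1 (ENSMUSG00000063887, chromosome 3, 25426215 to 26332460 on the minus strand) ran the other way. It measured 9.34, 11.1, 8.12 and 15.3 CPM after bulbectomy, against 32.5, 16.8, 17.3, 26.4 and 21.1 CPM after sham, with a log2 fold change of -1.02 ± 0.25. The groups did not overlap, but bulbectomy 4 came close to sham 2 and 3. Without hippocampus sham 1 and 2 the Nlgn1 value was -0.95. Exons of the antisense gene A830092H15Rik cover 9.16% of the exon bases of Nlgn1 on the opposite strand, and without the strand setting of the counting these reads cannot be assigned to a strand.

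Nlgn2 (ENSMUSG00000051790, chromosome 11, 69823122 to 69837784 on the minus strand) was the most abundant neuroligin. Its level was 246, 304, 267 and 274 CPM in bulbectomy hippocampus, against 186, 189, 209, 198 and 168 CPM in sham hippocampus, again with no overlap. The log2 fold change was 0.55 ± 0.14, a smaller shift than that of Nlgn3.

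**Figure D1:**
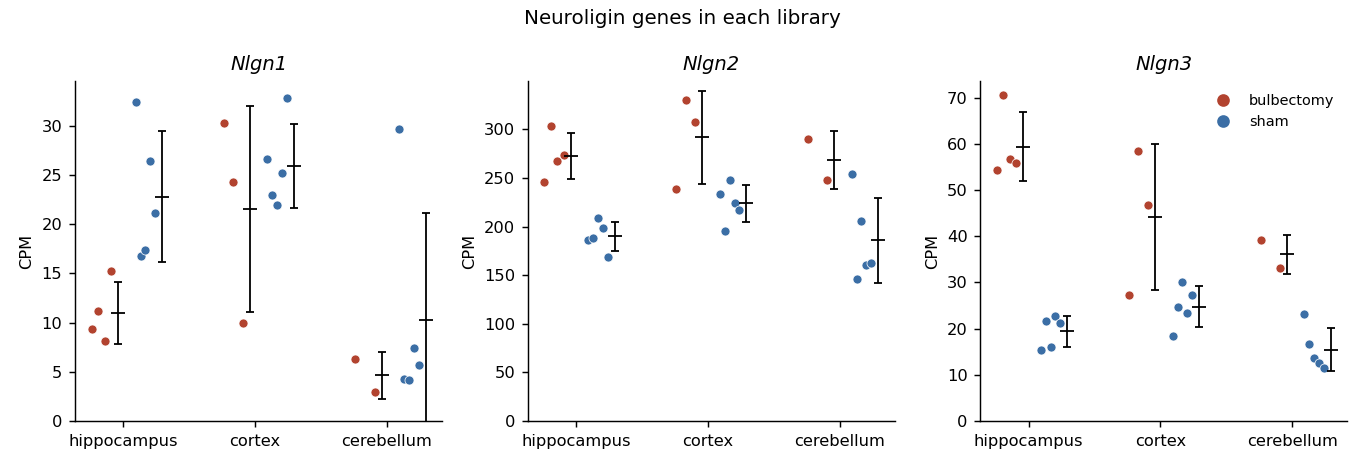
Level of Nlgn1, Nlgn2 and Nlgn3 in CPM (vertical axes, starting at 0) in each of the 24 libraries by region, with bulbectomy in red left of sham in blue. Points are libraries and the black marks beside them the mean ± SD of the group; the bar of Nlgn1 in sham cerebellum is cut at 0. Nlgn3 lies at 54.4 to 70.7 CPM in bulbectomy hippocampus, above all 5 sham libraries at 15.3 to 22.7 CPM.

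The makeup of the neuroligin family differed with these levels. Per kilobase of exons, Nlgn3 took 11.1% to 12.5% of the summed level of the 3 neuroligin genes in bulbectomy hippocampus, against 4.42% to 6.94% in sham hippocampus. Nlgn1 took 1.14% to 2.08% after bulbectomy, against 3.30% to 6.68% after sham. Nlgn2 kept the bulk in both groups, at 86.2% to 87.3% after bulbectomy and 88.3% to 92.3% after sham. The length used for Nlgn3 includes the exon bases shared with Gm21986, so its share may be understated in both groups.

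Ratios of reads within one library do not depend on how libraries are scaled. Nlgn2 gave 4.53, 4.30, 4.70 and 4.90 reads per Nlgn3 read in bulbectomy hippocampus, against 12.1, 8.68, 13.0, 8.74 and 7.94 in sham hippocampus. In cortex the ratio was 8.75, 5.65 and 6.57 after bulbectomy, against 12.8, 7.97, 8.24, 9.61 and 7.96 after sham, and the groups overlapped through bulbectomy 1. In cerebellum it was 7.40 and 7.47 after bulbectomy, against 10.96, 8.83, 15.1, 12.8 and 14.2 after sham, without overlap. In cortex and cerebellum the ratio was lower in 4 of the 5 bulbectomy libraries than in every sham library of the same region. How often other gene pairs do so was not counted. The members were also chosen with results of these data known, so this count is a description only. Nlgn2 reads per Nlgn1 read were 26.4, 27.3, 32.9 and 18.0 in bulbectomy hippocampus, against 5.73, 11.3, 12.1, 7.51 and 7.98 in sham hippocampus.

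**Figure D2:**
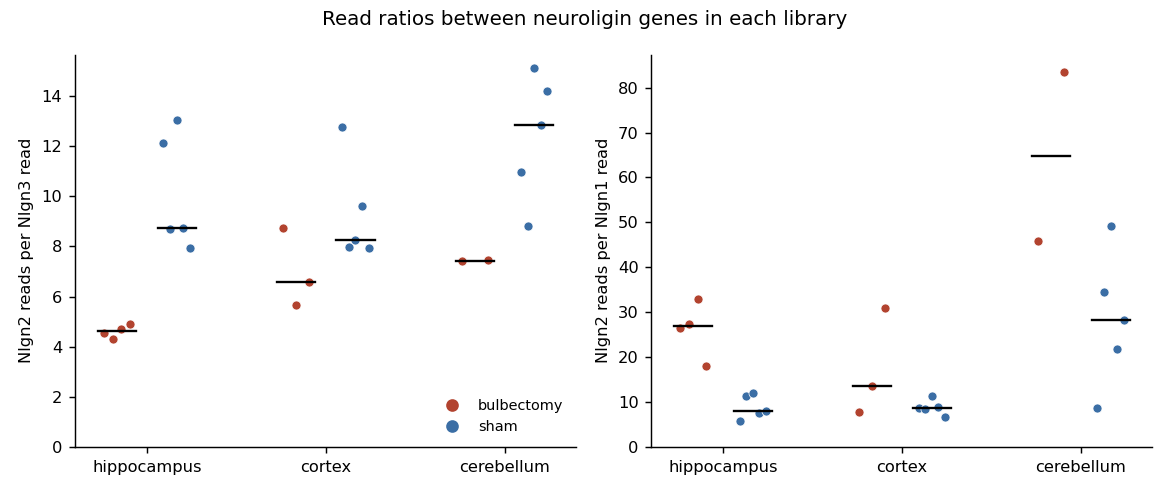
Reads of Nlgn2 per read of Nlgn3 (left) and per read of Nlgn1 (right) in each library, by region, with bulbectomy in red left of sham in blue and black lines at the group medians. Both vertical axes start at 0. In hippocampus the left ratio is 4.30 to 4.90 after bulbectomy and 7.94 to 13.0 after sham.

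Of the neurexins, which face these ligands from the presynaptic side, both had overlapping bulbectomy and sham hippocampus libraries. Nrxn2 (ENSMUSG00000033768, chromosome 19, 6418731 to 6544169 on the plus strand) measured 570, 628, 512 and 640 CPM after bulbectomy, against 477, 526, 711, 396 and 553 CPM after sham. The sham libraries spanned the whole bulbectomy range, and the log2 fold change was 0.17 ± 0.18. Nrxn3 (ENSMUSG00000066392, chromosome 12, 88722876 to 90334935 on the plus strand) measured 76.7, 90.2, 102 and 136 CPM after bulbectomy, against 117, 127, 86.2, 79.8 and 88.9 CPM after sham, with a log2 fold change of 0.05 ± 0.20. The 2 highest sham values of Nrxn3 were in hippocampus sham 1 and 2, and without these libraries the log2 fold change was 0.29. Antisense or opposite-strand genes cover 6.44% of the exon bases of Nrxn2 and 3.48% of those of Nrxn3.

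Among the cerebellins in hippocampus, Cbln1 was higher in every bulbectomy library than in every sham library. Cbln1 (ENSMUSG00000031654, chromosome 8, 87468405 to 87472609 on the minus strand) measured 59.4, 28.4, 34.8 and 25.4 CPM after bulbectomy, against 14.8, 8.79, 12.3, 9.03 and 11.4 CPM after sham. Bulbectomy 1 was the highest by far, and the other 3 lay within 10 CPM of each other. The log2 fold change was 1.77 ± 0.26, and 1.45 with hippocampus bulbectomy 1 left out. With hippocampus sham 1 and 2 left out instead it was 1.82.

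Cbln3 (ENSMUSG00000040380, chromosome 14, 55878913 to 55884392 on the minus strand) was near the limit of detection in hippocampus. It gave 95, 13, 24 and 3 reads after bulbectomy (10.6, 1.59, 3.04 and 0.36 CPM), against 7, 16, 6, 123 and 2 reads after sham (2.07, 1.85, 0.72, 0.75 and 0.21 CPM). A floor of 3 reads corresponds to 0.02 CPM in sham 4, 0.89 CPM in sham 1 and 0.31 to 0.38 CPM in the other 7 libraries; the floor covers counting error alone. The groups overlapped, and the log2 fold change of 1.98 ± 0.83 was 0.75 without hippocampus bulbectomy 1, which moves the value by more than 1.5 times.

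Cbln4 and Cbln2 differed less. Cbln4 (ENSMUSG00000067578, chromosome 2, 172036233 to 172043466 on the minus strand), which in mouse binds neurexins and the netrin receptor DCC, measured 8.23, 6.0002, 3.04 and 7.63 CPM in bulbectomy hippocampus, against 8.26, 9.36, 11.4, 9.98 and 8.71 CPM in sham hippocampus. The groups did not overlap, though bulbectomy 1 lay just under sham 1, and the log2 fold change was -0.59 ± 0.27. Cbln2 (ENSMUSG00000024647, chromosome 18, 86711110 to 86718283 on the plus strand) measured 9.23, 5.27, 3.43 and 9.81 CPM after bulbectomy, against 4.13, 6.47, 3.23, 4.15 and 4.20 CPM after sham, with overlap and a log2 fold change of 0.66 ± 0.33. Of the summed cerebellin level per kilobase, Cbln1 took 57.9% to 80.0% in bulbectomy hippocampus, against 33.1% to 50.8% in sham hippocampus, and Cbln4 took 7.34% to 18.2%, against 29.8% to 43.0%.

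**Figure D3:**
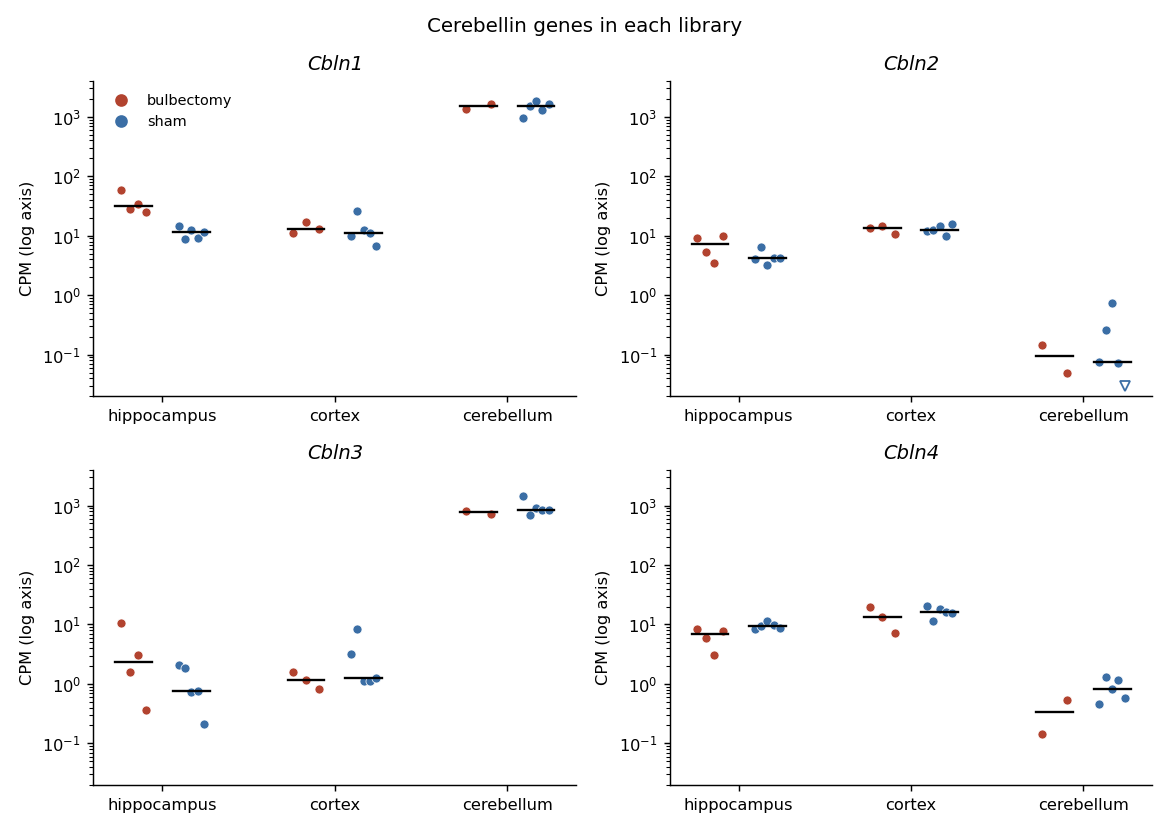
Level of Cbln1, Cbln2, Cbln3 and Cbln4 in CPM on log axes in each library, by region, with bulbectomy in red left of sham in blue and black lines at the group medians. The open triangle marks the sham cerebellum library with 0 Cbln2 reads, drawn at the bottom of the axis. Cbln1 and Cbln3 are high in cerebellum, Cbln2 and Cbln4 in cortex and hippocampus, and Cbln1 in bulbectomy hippocampus is 25.4 to 59.4 CPM, above sham at 8.79 to 14.8 CPM.

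Markers of tissue outside the hippocampus also differed between bulbectomy and sham hippocampus. All 16 striatal medium spiny neuron markers lay below sham, with a median log2 fold change of -1.99. Of these, 0 were called by edgeR and 3 by DESeq2, and their levels were high in hippocampus sham 1 and 2, as given above. Of 9 choroid plexus markers, 6 lay above sham and 3 below, with a median log2 fold change of 0.48 and 0 called. In bulbectomy hippocampus 15 of the 17 tested thalamus and habenula markers lay above sham and 2 below. Their median log2 fold change was 0.88, against 0.02 over all genes tested, and 5 were called higher (adjusted p under 0.05 by edgeR's quasi-likelihood test, adjusted by Benjamini-Hochberg). DESeq2 called 9 of them and 9 reached an unadjusted p under 0.05, against 954 and 2794 of all 13985 genes tested. Their summed level over 18 listed genes was 808, 459, 560 and 552 CPM in the 4 bulbectomy libraries, against 277, 160, 603, 218 and 600 CPM in the 5 sham libraries, so the sums overlapped. The mean of their log2 CPM did not overlap, at 3.752 to 4.476 in the bulbectomy libraries, against 1.845 to 3.205 in the sham libraries. None of the 18 was at 0 in a bulbectomy library, and 0 to 2 were at 0 in each sham library. Pou4f1, a transcription factor of habenular neurons and 1 of the 18 listed genes, was named after its values were seen. It had 15, 15, 8 and 10 reads after bulbectomy and 0, 0, 0, 3 and 0 reads after sham. The part of thalamus, habenula, striatal or choroid plexus tissue in the Nlgn3 and Cbln1 values was not tested.

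Markers of cerebellar granule cells, which express Cbln1 and Cbln3 strongly, and of inhibitory neurons were also read beside these values. The summed level of the 9 granule cell markers was 201, 116, 131 and 133 CPM in bulbectomy hippocampus, against 128, 107, 166, 136 and 153 CPM in sham hippocampus, and of 7 tested, 5 were higher and 2 lower, 0 called by edgeR, 4 at an unadjusted p under 0.05 and 1 called by DESeq2. Bulbectomy 1, the library with the most Cbln1 and Cbln3, also had the highest of these sums. Cbln1 gave 5.62, 17.9, 11.4 and 70.0 reads per Cbln3 read in bulbectomy hippocampus, against 7.14, 4.75, 17.2, 12.1 and 54.5 in sham hippocampus, and 0.66 to 2.29 in the 7 cerebellum libraries. The 3 inhibitory neuron markers (Gad1, Gad2 and Slc32a1) all lay below sham. Their median log2 fold change was -0.78, with 0 called by edgeR, 2 at an unadjusted p under 0.05 and 1 called by DESeq2. Their part in the values of the 9 genes was not tested.

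Across the whole table, 217 of 13985 genes tested in hippocampus (1.55%) passed an adjusted p under 0.05, and 2 of the 9 members, Nlgn3 and Cbln1, were among them. The bulbectomy and sham groups did not overlap for 9.48% of all genes tested and for 5 of the 9 members (Nlgn2, Nlgn3 and Cbln1 higher, Nlgn1 and Cbln4 lower). Since the members were chosen with these values known, nothing is read from those counts.

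**Figure D4:**
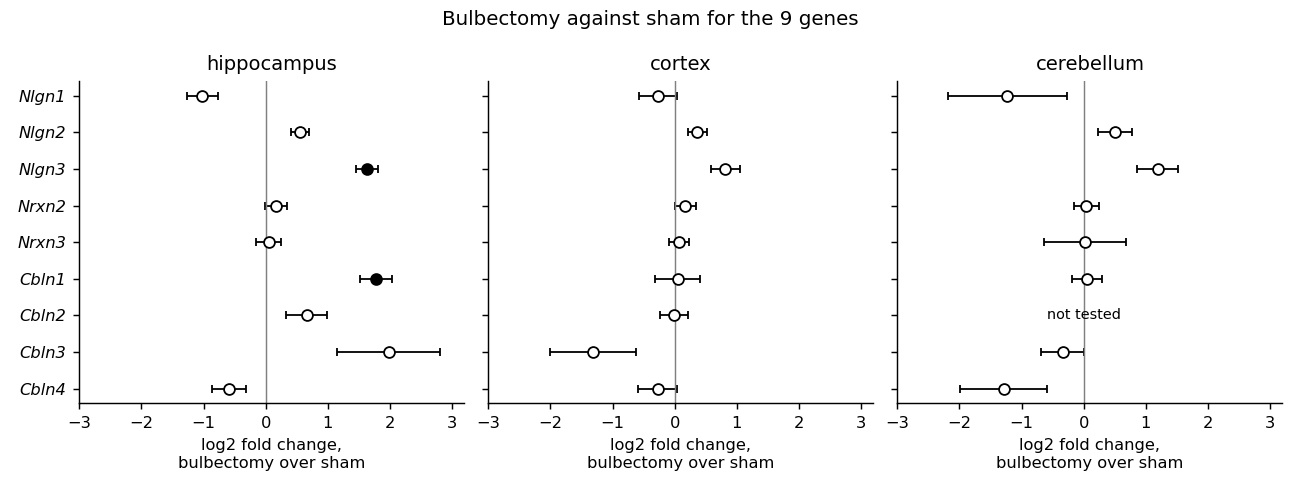
Log2 fold change of bulbectomy over sham (horizontal axes) for the 9 genes in hippocampus, cortex and cerebellum, with bars of 1 SE from edgeR. Filled points passed an adjusted p under 0.05 over all genes tested and open points did not; Cbln2 was not tested in cerebellum. Nlgn3 lies right of 0 in all 3 regions, at 1.63, 0.81 and 1.19, and Cbln1 lies at 1.77, 0.05 and 0.05.

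In cortex, where the hippocampus libraries played no part, none of the 9 members was called by edgeR or by DESeq2, and 2 reached an unadjusted p under 0.05. Of all 14847 genes tested in cortex, 3 (0.0202%) were called and 877 reached an unadjusted p under 0.05. Nlgn3 measured 27.2, 58.5 and 46.8 CPM after bulbectomy, against 18.3, 24.6, 30.1, 23.3 and 27.3 CPM after sham. Bulbectomy 2 and 4 lay above all sham libraries and bulbectomy 1 lay among them. The log2 fold change of Nlgn3 was 0.81 ± 0.23 (edgeR adjusted p = 0.634), and without cortex bulbectomy 1 it was 1.05 (edgeR adjusted p = 0.019, with 573 genes called). Of 8 fits with 1 cortex library left out, that was the 1 that called Nlgn3, and the log2 fold changes ran from 0.56 to 1.05. Nlgn2 measured 238, 330 and 307 CPM after bulbectomy, against 234, 196, 248, 224 and 217 CPM after sham (log2 fold change 0.36 ± 0.16, edgeR adjusted p = 0.787).

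The other members varied in cortex without a shared direction. Nlgn1 measured 30.3, 24.3 and 9.92 CPM after bulbectomy, against 22.0 to 32.9 CPM after sham, so that the low mean came from bulbectomy 4. Cbln1 measured 11.1, 17.3 and 12.9 CPM after bulbectomy, against 9.88, 25.7, 12.5, 11.02 and 6.77 CPM after sham, a log2 fold change of 0.05 ± 0.36 (edgeR adjusted p = 0.986). Cbln3 was lower after bulbectomy by the fit (log2 fold change -1.32 ± 0.69, edgeR adjusted p = 0.848), with 1.58, 1.17 and 0.82 CPM, against 3.19, 8.37, 1.13, 1.12 and 1.28 CPM. Cortex sham 2, which was highest for both Cbln1 and Cbln3, set much of that value, and without it the log2 fold change of Cbln3 was -0.49 and that of Cbln1 0.40. Log2 fold changes of Nrxn2, Nrxn3, Cbln2 and Cbln4 lay between -0.27 and 0.17. For none of the 9 did the cortex groups stand apart without overlap, against 3.59% of all genes tested.

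In cerebellum, 8 of the 9 members passed the filter on low counts and none was called by edgeR or DESeq2, with 1 at an unadjusted p under 0.05; of all 15295 genes tested there, 2 (0.0131%) were called and 454 reached that unadjusted p. With 2 bulbectomy libraries the spread of that group is poorly known. Nlgn3 measured 39.1 and 33.2 CPM after bulbectomy, against 23.2, 16.6, 13.6, 12.5 and 11.4 CPM after sham, without overlap. Its log2 fold change was 1.19 ± 0.33 (edgeR adjusted p = 1), and without cerebellum sham 1 it was 1.43 (edgeR adjusted p = 0.00963, with 36 genes called). Leaving out any other sham library gave no call of Nlgn3. Its log2 fold changes with 1 cerebellum library left out ran from 1.05 to 1.43. Nlgn3 was the sole member without overlap there, against 10.9% of all genes tested. Nlgn2 measured 290 and 248 CPM, against 254, 147, 206, 161 and 162 CPM, with a log2 fold change of 0.50 ± 0.27 (edgeR adjusted p = 1).

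Cbln1 and Cbln3, the abundant cerebellins of the cerebellum, had overlapping groups there. Cbln1 measured 1369 and 1674 CPM after bulbectomy, against 961, 1547, 1857, 1303 and 1628 CPM after sham, a log2 fold change of 0.05 ± 0.23 (edgeR adjusted p = 1). Cbln3 measured 800 and 731 CPM after bulbectomy, against 1461, 685, 894, 834 and 827 CPM after sham, a log2 fold change of -0.34 ± 0.35, and -0.07 without cerebellum sham 1. Nlgn1 measured 6.31 and 2.97 CPM after bulbectomy, against 29.6, 4.26, 4.18, 7.40 and 5.74 CPM after sham, and its log2 fold change of -1.23 ± 0.95 became -0.23 without cerebellum sham 1. Cbln4 gave 2 and 11 reads after bulbectomy, against 6 to 16 reads in each sham library. Cbln2 gave 2 and 1 reads after bulbectomy and 0 to 12 after sham and was not tested; 3 reads correspond to 0.15 to 0.26 CPM in these libraries.

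Whether the effect of bulbectomy differed between regions was tested in a fit of all 24 libraries. None of the 9 members and none of 16564 genes (0%) was called by edgeR in any of the 3 contrasts, and at an unadjusted p under 0.05 there were 466, 511 and 276 genes for hippocampus minus cortex, hippocampus minus cerebellum and cortex minus cerebellum. DESeq2 called 3, 2 and 0 genes, none of them members. Cbln1 and Nlgn3 were chosen on their hippocampus effects, which enter these differences, so their values are given as a description. For Cbln1 the effect in hippocampus minus that in cortex was 1.68 ± 0.46 and minus that in cerebellum 1.68 ± 0.49 on the log2 scale. For Nlgn3 the same differences were 0.77 ± 0.33 and 0.38 ± 0.35. For Nlgn2 these differences were 0.14 ± 0.22 and -0.01 ± 0.24.

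The sham libraries show how the 9 genes are distributed over the 3 regions without bulbectomy. The cerebellins divided sharply. Cbln1 measured 8.79 to 14.8 CPM in hippocampus, 6.77 to 25.7 CPM in cortex and 961 to 1857 CPM in cerebellum. Cbln3 measured 0.21 to 2.07 CPM in hippocampus, 1.12 to 8.37 CPM in cortex and 685 to 1461 CPM in cerebellum. Cbln2 and Cbln4 had the reverse order: Cbln2 measured 3.23 to 6.47 CPM in hippocampus, 9.97 to 16.0 CPM in cortex and 0 to 0.75 CPM in cerebellum, and Cbln4 measured 8.26 to 11.4, 11.4 to 20.3 and 0.46 to 1.303 CPM in the same regions. Within cerebellum Cbln1 stayed the more abundant of the 2 high genes per kilobase in all 5 sham libraries, at 51.3% to 78.3% of the summed cerebellin level, with the lowest share in cerebellum sham 1.

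All 4 cerebellins passed the test between sham hippocampus and sham cerebellum. The log2 fold changes of hippocampus over cerebellum were -6.97 ± 0.37 for Cbln1 and -9.89 ± 0.72 for Cbln3, against 4.29 ± 0.55 for Cbln2 and 3.54 ± 0.28 for Cbln4 (edgeR adjusted p = 8.88e-10, 3.09e-08, 1.55e-05 and 7.18e-08). The Cbln2 value rests on 17 reads in the 5 cerebellum libraries, 12 of them in cerebellum sham 3, and without that library it was 5.56 (edgeR adjusted p = 7.36e-07). Nrxn2 was lower in hippocampus by -0.63 ± 0.17 (edgeR adjusted p = 0.00881), at 396 to 711 CPM, against 655 to 1101 CPM in cerebellum. Its adjusted p was 0.0505 by edgeR with hippocampus sham 1 and 2 left out. In all, 5 of 9 members were called, against 28.4% of all genes tested, and the libraries of the 2 regions did not overlap for 4 of 9, the cerebellins, against 18.1% of all genes.

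None of the 3 neuroligins nor Nrxn3 passed the test between sham hippocampus and sham cerebellum with all libraries counted, and leaving out cerebellum sham 1 put Nlgn1, Nlgn3 and Nrxn3 past the threshold. Nlgn1 measured 29.6 CPM in cerebellum sham 1 and 4.18 to 7.40 CPM in the other 4, against 16.8 to 32.5 CPM in hippocampus. Its log2 fold change of hippocampus over cerebellum was 1.21 ± 0.46 (edgeR adjusted p = 0.0621), and 2.14 without cerebellum sham 1 (edgeR adjusted p = 1.53e-06). With the replicate number as a block in the fit of all sham libraries, cortex included, it was 1.54 (edgeR adjusted p = 0.00243). Same-numbered sham libraries of hippocampus and cerebellum correlated at 0.176 to 0.762. Cortex sham 5 did not pair by number, at -0.394 with hippocampus sham 5 and -0.358 with cerebellum sham 5, so the block assumes a pairing that fails there. With all libraries kept, Nlgn1 was also called by DESeq2 (adjusted p = 0.0381), and by edgeR with upper-quartile scaling (adjusted p = 0.0491), in the fit of all 24 libraries (0.0445) and with the length and GC trend removed (1.12e-07). Nrxn3 measured 216 CPM in cerebellum sham 1 and 48.4 to 76.1 CPM in the others, and its log2 fold change of 0.20 ± 0.34 became 0.82 without that library (edgeR adjusted p = 0.715 and 0.00099). Nlgn3 likewise was at 0.40 ± 0.21 with it and 0.61 without it (edgeR adjusted p = 0.18 and 0.0127). In cerebellum sham 1 the granule cell markers moved in both directions, as given above, and their part in these differences was not tested.

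Between sham cortex and sham cerebellum, 7 of 9 members were called, against 34.7% of all genes tested, and 4 of 9 did not overlap, against 25.6%. The cerebellins differed as before, with log2 fold changes of cortex over cerebellum of -6.70 ± 0.36 for Cbln1, -8.20 ± 0.64 for Cbln3, 5.85 ± 0.56 for Cbln2 and 4.34 ± 0.28 for Cbln4 (edgeR adjusted p between 1.11e-09 and 4.96e-07). Without cerebellum sham 3 the Cbln2 value was 7.12, and without cortex sham 2 the Cbln3 value was -9.16. Nlgn3 was higher in cortex by 0.76 ± 0.21 (edgeR adjusted p = 0.00979), at 18.3 to 30.1 CPM in cortex and 11.4 to 23.2 CPM in cerebellum, and stayed called with each of the 10 libraries left out in turn. Nlgn1 was higher in cortex by 1.41 ± 0.46 (edgeR adjusted p = 0.0252) and Nrxn3 by 0.92 ± 0.34 (edgeR adjusted p = 0.0469). Both calls were unstable. Leaving out any of cerebellum sham 2, 3, 4 or 5 or cortex sham 5 put the adjusted p of Nlgn1 at 0.0557 to 0.0638, whereas without cerebellum sham 1 it was 3.87e-07, with a log2 fold change of 2.33. For Nrxn3, 9 of the 10 libraries left out in turn ended the call, at an adjusted p of 0.0638 to 0.112, and without cerebellum sham 1 the log2 fold change was 1.52 (edgeR adjusted p = 1.21e-06). Nlgn2, at 0.35 ± 0.15, missed the threshold (edgeR adjusted p = 0.0809) and passed it without cerebellum sham 1 (0.48, edgeR adjusted p = 0.00493), with the replicate block (0.37, edgeR adjusted p = 0.0354) and with upper-quartile scaling (0.39, edgeR adjusted p = 0.0464). The replicate numbers did not pair cortex and cerebellum throughout, since the libraries numbered 5 correlated at -0.358. Nrxn2 was at -0.25 ± 0.17 (edgeR adjusted p = 0.274), and at -0.78 with the length and GC trend removed (edgeR adjusted p = 0.000342).

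Between sham hippocampus and sham cortex, none of the 9 members was called by edgeR, 5 reached an unadjusted p under 0.05 and 2 (Cbln2 and Cbln4) were called by DESeq2. Over all 15142 genes tested, edgeR called 3.3%, 2042 reached an unadjusted p under 0.05 and DESeq2 called 895. All 9 log2 fold changes of hippocampus over cortex were below 0 under TMM, RLE and upper-quartile scaling, but that of Nlgn1 was 0.28 with a length and GC trend removed and that of Cbln1 was 0.12 without cortex sham 2. The libraries of the 2 regions did not overlap for Cbln2, Nrxn3 and Cbln4, against 6.8% of all genes. Cbln2 stood at -1.56 ± 0.44 (edgeR adjusted p = 0.0624), Cbln4 at -0.80 ± 0.24 (0.0852) and Nrxn3 at -0.72 ± 0.34 (0.37), each an edgeR adjusted p. The highest Cbln2 value in hippocampus, 6.47 CPM, and the highest Nrxn3 value, 127 CPM, were both in hippocampus sham 2. Without hippocampus sham 1 and 2 the 3 values were -1.78 for Cbln2, -0.76 for Cbln4 and -0.98 for Nrxn3, and none was called. With all libraries kept, edgeR called Cbln2 with the replicate block (adjusted p = 0.0405), in the fit of all 24 libraries (0.0245) and with the length and GC trend removed (0.0157), and Cbln4 with that trend removed (0.0188). The replicate numbers did not pair these 2 regions throughout, since the libraries numbered 5 correlated at -0.394.

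**Figure D5:**
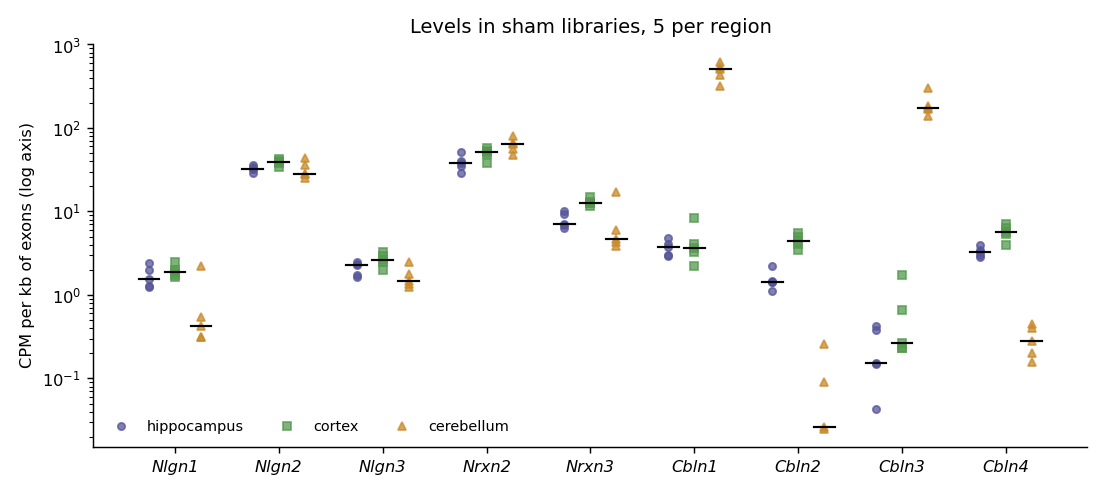
Level per kilobase of exons (CPM per kb, log axis) of the 9 genes in the 5 sham libraries of hippocampus (circles), cortex (squares) and cerebellum (triangles), with black lines at the medians. The cerebellum library with 0 Cbln2 reads is not drawn. Cerebellum lies far above the other regions for Cbln1 and Cbln3 and far below them for Cbln2 and Cbln4, and the isolated high cerebellum point of Nlgn1 and Nrxn3 is cerebellum sham 1.

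Levels can be set against each other between genes only per length. Per kilobase of exons in sham hippocampus, Nrxn2 averaged 38.6 ± 8.42 and Nlgn2 32.8 ± 2.62 CPM per kb (SD, n = 5), a difference within the spread of Nrxn2. Nrxn3 followed at 7.92 ± 1.66 CPM per kb, then Cbln1 at 3.71 ± 0.81 and Cbln4 at 3.29 ± 0.42, which did not differ beyond their spread. Nlgn3 at 2.09 ± 0.37, Nlgn1 at 1.70 ± 0.49 and Cbln2 at 1.53 ± 0.42 CPM per kb lay within 1 SD or so of their neighbours, and Cbln3 came last at 0.23 ± 0.16. In sham cerebellum Cbln1 came first at 481 ± 113 and Cbln3 second at 193 ± 61.9 CPM per kb. The length used matters for the neurexins: per kilobase of the longest transcript, Nrxn2 in sham hippocampus was at 79.9 and Nlgn2 at 34.1 CPM per kb. For Nlgn3 the length includes exon bases shared with Gm21986, so its level may be understated.

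The wider set of trans-synaptic adhesion genes was counted beside the members, as 82 genes that bind neurexins, neuroligins or cerebellins, anchor them or act in parallel. In hippocampus 78 were tested; 1 rose and 3 fell after bulbectomy, against 1.55% called of all genes, and the median log2 fold change was -0.13, against 0.02 over all genes. Apba1, encoding the presynaptic scaffold Mint1, rose to 119 ± 21.3 CPM, against 70.9 ± 13.8 CPM in sham (log2 fold change 0.78 ± 0.18, edgeR adjusted p = 0.0434). Dlgap2, a postsynaptic scaffold, fell to 8.95 ± 1.26 CPM, against 25.7 ± 9.18 CPM in sham (-1.48 ± 0.25, edgeR adjusted p = 0.0137; SD, n = 4 bulbectomy and 5 sham for both genes). Tenm3, a teneurin that binds latrophilins, fell by 1.47 on the log2 scale (edgeR adjusted p = 0.0488) and Ptprf, a presynaptic receptor phosphatase, by 0.61 (edgeR adjusted p = 0.0451). The calls of these partner genes were not examined with libraries left out. Over all genes, 30 to 477 were called in hippocampus with 1 library left out, against 217 with all kept.

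By role, the hippocampus counts were spread over the lists. None of 12 tested genes in the list of neurexin ligands was called. None of 8 tested cerebellin and C1q-like partners was called, including the delta receptor gene Grid1 at -0.56 ± 0.19 (edgeR adjusted p = 0.125). In postsynaptic scaffolds 9 of 13 were lower and 4 higher, 1 of them called. Of the 78 tested, 25 reached an unadjusted p under 0.05 and DESeq2 called 11; over all 13985 genes tested, 2794 reached that p and DESeq2 called 954. In cortex 0 of 79 and in cerebellum 0 of 78 were called by edgeR and by DESeq2, with 6 and 4 at an unadjusted p under 0.05. The partner genes of smallest p were Apba1 (0.57 ± 0.17) and C1ql2 (1.05 ± 0.32) in cortex, both at an edgeR adjusted p of 0.687, and Slitrk3 (-0.99 ± 0.38) and Ptprf (-0.53 ± 0.21) in cerebellum, both at an edgeR adjusted p of 1.

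Between sham regions, Grid1 was higher in hippocampus than in cerebellum by 1.11 ± 0.25 on the log2 scale (edgeR adjusted p = 0.00296). Of 79 partner genes tested, 32 were called higher and 8 lower in hippocampus than in cerebellum, against 28.4% called of all genes. In cortex over cerebellum 40 were called higher and 6 lower, against 34.7% of all genes. C1ql2, a C1q-like protein of dentate granule cell synapses, was higher in hippocampus than in cortex by 3.25 ± 0.42 (edgeR adjusted p = 0.000881), one of 3 partner genes called there. Mdga1, which encodes an inhibitor of the binding of neuroligin 2 to neurexin, was higher in hippocampus by 1.15 ± 0.26 (edgeR adjusted p = 0.0203), and the postsynaptic scaffold gene Shank1 was lower, at -1.03 ± 0.24 (edgeR adjusted p = 0.026).

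Several partner genes were called against cerebellum in both hippocampus and cortex. Of the genes higher in hippocampus than in cerebellum, those of smallest p were Lrrtm1 (4.19), a postsynaptic neurexin ligand, Khdrbs3 (3.33), a regulator of neurexin splicing, Lrfn2 (4.20), Tenm4 (2.10), Slitrk3 (2.61) and Dlgap2 (4.88), as log2 fold changes. In cortex over cerebellum the values of the same genes were 3.34, 3.51, 4.01, 2.46, 2.65 and 5.50, and they were again those of smallest p. Lower than in cerebellum were, among others, Cadm3 (-1.50), Nxph4 (-1.95), Lin7a (-2.03), Clstn3 (-0.85) and Cadm4 (-0.74) in hippocampus. The values of these 5 genes in cortex were -1.30, -2.11, -1.06, -0.71 and -0.69, and all were called (edgeR adjusted p at most 0.0256).

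The genes whose levels were most like those of a member were found by Pearson correlation of log2 CPM over the libraries, as a description. Libraries share a region, an operation and a depth, so high values arise between any genes that differ between regions. Over all 24 libraries Nlgn3 was most like Dpysl2, which encodes the collapsin response mediator (r = 0.98), followed by Zmat3 (0.93) and Inafm2 (0.91). Over the 9 hippocampus libraries Dpysl2 and Inafm2 again led for Nlgn3 (0.99 and 0.98), followed by Lrrc8a (0.98), and the 3 most like Cbln1 were Med10 (0.95), Gng8 (0.94) and Proz (0.93). Gng8 is also in the list of habenula markers above. Cbln3 was most like Gabra6, the GABA receptor subunit of cerebellar granule cells (0.99), and Cbln4 most like Tbr1, a transcription factor of cortical neurons (0.97), over the 24 libraries. Over the 24 libraries the genes most like the others included Alcam and Ano3 for Nlgn1 (0.97 and 0.96), Apba1, Ctnnd1 and Trim8 for Nlgn2 (0.89, 0.89 and 0.88), and Scrt1, Igsf21 and Cdh22 for Nrxn2 (0.95, 0.92 and 0.90). For Nrxn3 they were Rbfox1, Strbp and Scn2a (each 0.92), for Cbln1 Dao, Pax6 and Trim62 (each 0.98), and for Cbln2 Trerf1, Tmem215 and Lzts1 (0.98, 0.97 and 0.97). Fat2 and Mybpc3 followed Gabra6 for Cbln3 (each 0.98), and Doc2a and Gda followed Tbr1 for Cbln4 (each 0.97). Pax6, Fat2 and Gabra6 are also in the list of cerebellar granule cell markers.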

How the data were processed

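RNA-seq of polyadenylated RNA from hippocampus, cortex and cerebellum was analysed in 24 libraries. The deposited values are raw counts per gene, one file a library; the submitters' processing notes name Trimmomatic, STAR, featureCounts and mm10, without versions or a strand setting. No column of another sample was used. The members and gene lists were chosen with earlier results of these data known.

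Each comparison was fitted on all genes passing filterByExpr (minimum count 10) with TMM scaling and edgeR 4.0.16's quasi-likelihood test in R 4.3.3, within a tissue for bulbectomy against sham, over the 15 sham libraries for regions, and over all 24 for differences of effects. P-values were adjusted by Benjamini-Hochberg over all genes tested, and a call is an adjusted p under 0.05. Hippocampus p-values of the members are not given, since that contrast was used to choose them. Scripts were tested on simulated data. DESeq2 1.42.0, other scalings, no filter, a length and GC trend (mgcv 1.9.3), a replicate block and leaving out libraries were the alternatives.

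All 9 members were described. Partner genes were named when called, up to the 6 of smallest p in each direction, or the 2 of smallest p where none was called, and the 3 genes most correlated with each member were taken as most like it, over 24 libraries and over the 9 of hippocampus; the hippocampus ones are given for Nlgn3 and Cbln1. Grid1 and Pou4f1 were named after their values were seen. Some genes that these rules would name are not reported here. A floor of 3 reads is given for low counts and covers counting error only. Levels per kilobase use the union of GENCODE M21 exons. Same-numbered libraries were checked for pairing by the correlation of their deviations from group means: for sham hippocampus and cerebellum it was 0.176 to 0.762, above 0.1 in every pair, and the labels do not say what a number marks. The lowest was number 4, where hippocampus sham 4 correlated most with cerebellum sham 1 and not with cerebellum sham 4.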

Additional observations from a re-analysis of the deposited data

Results flagged for a closer look

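Of 36 groups of 4 or 5 libraries examined, 5 held a library far from the others, where chance alone flags about 1 in 20 groups. Cerebellum sham 1 stood apart for 3 genes: it had 29.6 CPM of Nlgn1 (4.18 to 7.40 CPM in the other 4), 216 CPM of Nrxn3 (48.4 to 76.1 CPM) and 1461 CPM of Cbln3 (685 to 894 CPM). Cortex sham 2 had 8.37 CPM of Cbln3, against 1.12 to 3.19 CPM in the other 4 sham cortex libraries. Hippocampus bulbectomy 2 had 70.7 CPM of Nlgn3, against 54.4 to 56.8 CPM in the other 3 bulbectomy libraries. The causes were not tested.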

How the results depend on the processing

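Of 1489 recomputed member values, 1468 moved by less than the spread between replicates, 21 moved by more and no called value changed sign; the cause was not tested. Counts of genes called moved more. In hippocampus, 217 genes were called after bulbectomy, against 954 by DESeq2, 444 with the length and GC trend removed (204 higher and 240 lower, against 77 and 140), 348 without hippocampus sham 1 and 2, and 30 to 477 with 1 library left out. In cortex, 3 were called, against 7 with RLE scaling, 24 without the filter, 39 by DESeq2, 7 with the trend removed, 5 in the fit of all 24 libraries and 1 to 573 with 1 library left out. In cerebellum, 2 were called, against 12 by DESeq2 and 0 to 36 with 1 library left out. Between sham hippocampus and cortex, 500 were called, against 895 by DESeq2, 865 with the trend removed (458 higher and 407 lower, against 317 and 183), 768 in the fit of all 24 and 284 to 592 with 1 left out. With 1 left out, sham hippocampus against cerebellum gave 3727 to 6027 (4296 in all) and sham cortex against cerebellum 4590 to 7743 (5251 in all). For differences of effects, DESeq2 called 3 and 2 for hippocampus minus cortex and minus cerebellum, where edgeR called 0, and 0 to 1 and 0 to 2 with 1 left out. Depth limits Cbln2 and Cbln4 in cerebellum and Cbln3 in hippocampus, and 2 bulbectomy libraries limit the cerebellum.

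With the replicate block, 76 genes were called in hippocampus, 13 in cortex, 0 in cerebellum and 765 between sham hippocampus and cortex. Elsewhere not every same-numbered pair correlated above 0.1: between sham cortex and cerebellum 4 of 5 pairs were at 0.519 to 0.595 and number 5 at -0.358, and between sham hippocampus and cortex number 5 was at -0.394. In cerebellum, bulbectomy and sham had 2 pairs, at 0.649 and 0.489, too few to take the numbers as pairing.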
